A study of Canis lupus familiaris with 25 samples.

Results

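Prostate tissue of intact dogs was compared, so that malignant and non-malignant tissue came from dogs of the same reproductive status. The comparison used 12 of the 25 samples of the series: 3 malignant tissues of intact males (PT-1, PT-4 and PT-8) and the 9 controls PT-10 to PT-18, which were non-malignant and likewise from intact males. Samples were chosen by their labels for sample type, diagnosis and reproductive status. The remaining samples were 6 malignant tissues of neutered dogs and 7 fine-needle aspirates. The neutered tumours were set beside the intact ones. They also entered the filter on low counts and the normalisation of the printed levels. The aspirates were not compared and entered only the filter on low counts, which was set over all 25 samples.

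The malignant tissues were diagnosed as prostate carcinoma and the controls as normal to hyperplastic prostate, both by histopathology. PT-1 was from a Briard aged 9 years, PT-4 from a West Highland White Terrier aged 9 years and PT-8 from an English Bulldog aged 8 years. The 9 control dogs were 1 to 16 years old (median 6 years), and apart from 2 mixed-breed dogs each was of another breed. The neutered dogs were 8 to 12 years old. No treatment and no genotype is given in the labels. Each sample was a piece of whole tissue collected after death, so its RNA came from all cells of the piece, and the age at neutering is not given. With 1 dog per sample and 3 intact dogs with carcinoma, breed and dog cannot be told apart.

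The prostate is built of glands whose luminal epithelial cells secrete the proteins of the seminal fluid. In intact dogs these cells depend on androgens from the testes, and the gland grows and becomes hyperplastic with age, whereas it shrinks after neutering. Canine prostate carcinoma also occurs in neutered dogs and is known for often losing secretory and androgen-dependent features. Comparing only intact dogs removes neutering as a difference between the groups.

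Between 4611618 and 5560430 reads were counted on genes in the 3 intact tumours and 4258267 to 6594032 in the 9 controls. Sequencing is described as single-read, but the study's methods also speak of pairs of mapped reads, so a count called a read here may stand for a pair. The share of reads that fell on no gene was 59.2 to 61.4% in the tumours and 58.8 to 68.8% in the controls, and the means differed by 2.42 percentage points (two-sided exact permutation test p = 0.191, 0.229 after Benjamini-Hochberg adjustment over 6 values per sample). At least 5 reads were found for 13916 genes in PT-1, 12705 in PT-4 and 13838 in PT-8, against 12004 to 13739 in the controls (exact permutation test p = 0.182, 0.229 adjusted). Levels are given as CPM, the count per 1000000 reads of the library size after TMM normalisation over the 18 tissues. On this scale the library size of 7 of the 9 controls is smaller than the number of reads on genes, and that of all 3 tumours is larger, so that a gene's CPM in a control can exceed its plain share of the reads. The files identify genes by Ensembl ID alone, and 13 genes whose IDs are printed in the study are described by name, 8 cancer-related and 5 haemoglobin genes. The 8 cancer-related genes had been selected by the study on these samples, so their direction is not independent evidence.

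Of 15283 genes tested in intact malignant against non-malignant tissue, 5529 (36.2%) had an FDR under 0.05 in edgeR's quasi-likelihood test. In the tumours 3426 genes (22.4%) were higher and 2103 (13.8%) were lower, so 62% of the calls were higher. The median log2 fold change was 2.34 among the genes called higher, -2.09 among those called lower and 0.19 over all genes tested. A log2 fold change above 1 was found for 3134 of the called genes and below -1 for 1940. Beyond 3 on this scale there were 1273 genes higher and 692 lower, and beyond 5 there were 434 and 237. Calls were spread over the range of expression. With the genes ranked by mean level and cut into 3 equal parts, they made up 40.4% of the lowest, 34.4% of the middle and 33.7% of the highest part.

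The threshold of the study was an FDR under 0.00001, and at this threshold edgeR called 0 of the 15283 genes (0%). The smallest FDR was 1.19e-05, so the most extreme genes lay just outside it. There were 143 genes with an FDR under 0.0001, 909 under 0.001 and 7248 (47.4%) with an unadjusted p under 0.05. DESeq2, the tool named in the study's methods, was run on all IDs of the same 12 samples and gave an adjusted p to 16085. Of these, it called 1087 genes at the strict threshold and 5812 at 0.05. Restricted to the filtered genes of the edgeR fit, a setting chosen after seeing the data, it called 1085 and 5707. In edgeR without the filter on low counts 54 genes passed the strict threshold. The counts at 0.05 of the 2 tools were within 1.5-fold of each other.

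The codes in the deposited sample names begin with GB in the 3 intact tumours and in 4 controls (PT-10 to PT-13), and hold a P in the other 5 controls. What the codes stand for is not given. Against the 4 GB controls alone, 1154 genes had an FDR under 0.05, of which 1151 were also called with all 9 controls. Against the 5 other controls 3591 genes were called, of which 3478 were shared with the full comparison. Fewer samples entered both of these fits, so the code and the number of controls cannot be told apart.

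**Figure D1:**
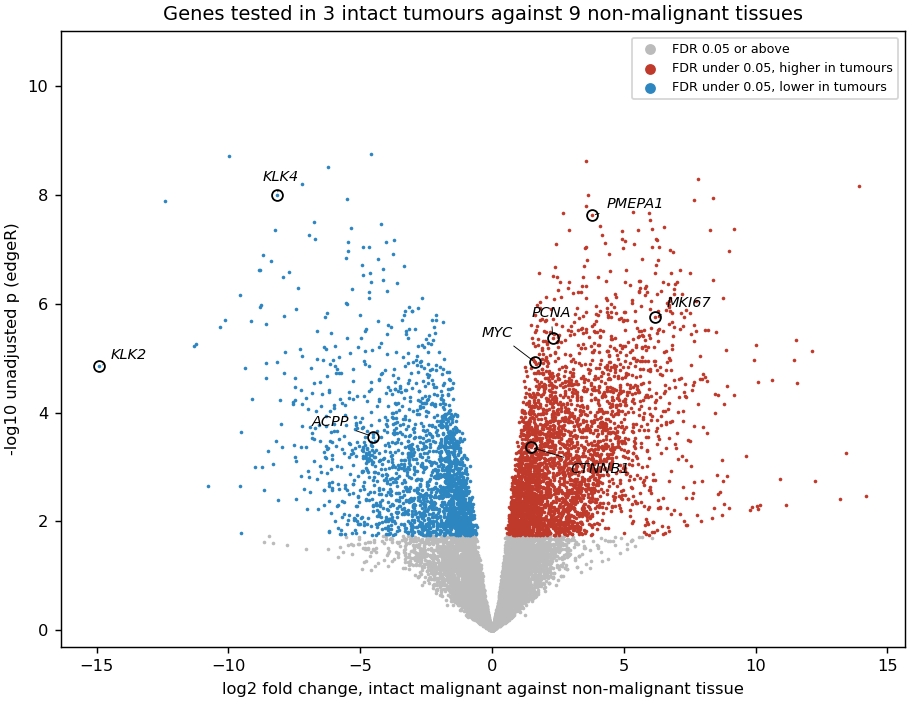
Each point is a gene, with the log2 fold change of intact malignant against non-malignant tissue on the horizontal axis and -log10 of the unadjusted edgeR p on the vertical axis. Red and blue points are the 3426 genes higher and the 2103 genes lower in the tumours at an FDR under 0.05, and circles mark the 8 cancer-related genes.

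All 8 cancer-related genes had an FDR under 0.05, against 36.2% of all genes tested, with 5 higher and 3 lower in the tumours. The 3 lower genes encode secretory proteins, and their levels in every tumour lay below every control. Of the 5 higher genes, 4 were above every control in all 3 tumours, a pattern shown by 10.2% of all genes tested. CTNNB1 was the exception, with 1 tumour inside the control range. All 3 tumours lay below every control for 9.68% of all genes tested.

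KLK2 (ENSCAFG00000002907) encodes a kallikrein, a secreted serine protease and in the dog the main protease of the seminal plasma. Its level was 0.35 CPM in PT-1, 37.6 CPM in PT-4 and 7.65 CPM in PT-8, from 3, 177 and 56 reads. In the 9 controls it ranged from 135713 to 835783 CPM with a median of 505592 CPM. The highest tumour thus lay 3612-fold under the lowest control. The log2 fold change was -14.90 (SE 2.32, FDR 0.00044), and -16.83 without PT-4.

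As a share of all reads on genes, KLK2 took 15.7 to 48.2% of the control libraries, with a median of 39.3%. In PT-1 its share was 5.395e-05% (95% Wilson interval 1.835e-05 to 0.0001586%), in PT-4 0.00384% (0.00331 to 0.00445%) and in PT-8 0.00103% (0.000793 to 0.00134%). These intervals cover counting error only. The share in PT-1 equalled the 3 reads taken as the floor of detection and was the lowest of the 3 tumours. On the log2 scale the mean share was 15.68 lower in the tumours (exact permutation test, two-sided, p = 0.00455, which no result of 3 against 9 samples can undercut, and 0.0136 adjusted). Since fewer luminal cells in a piece of tissue and less KLK2 RNA per luminal cell lower the share alike, they cannot be told apart here, nor for any other gene of these bulk samples.

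KLK4 (ENSCAFG00000002905), a second kallikrein of the secretory epithelium, was at 1.99 CPM in PT-1, 0.21 CPM in PT-4 and 1.50 CPM in PT-8. These values rest on 17 reads, 1 read and 11 reads. The controls ranged from 167 to 547 CPM with a median of 392 CPM. All 3 tumours were close to the limit of detection and the log2 fold change was -8.15 (SE 0.70, FDR 1.52e-05). Kallikreins form a family of related genes, and reads that map to several members are not counted by htseq-count, so the split of reads between relatives is uncertain.

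ACPP (ENSCAFG00000006237) encodes prostatic acid phosphatase, an enzyme secreted by luminal cells. It was at 0.58 CPM in PT-1, 3.82 CPM in PT-4 and 17.6 CPM in PT-8, against 73.9 to 450 CPM (median 128 CPM) in the controls. ACPP was the least reduced of the 3 secretory genes, and PT-8 kept a level 9.62-fold under the control mean, whereas PT-1 was 290-fold under it. The log2 fold change was -4.52 (SE 0.95, FDR 0.00267). With 1 sample left out it ranged from -6.32 without PT-8 to -3.96 without PT-1 and stayed called. Against the 4 GB controls alone it was -4.56 with an FDR of 0.0537. The highest tumour was PT-4 for KLK2 and PT-8 for ACPP. For KLK4 it was PT-1, but with 17 reads there and 11 in PT-8 their order is uncertain.

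**Figure D2:**
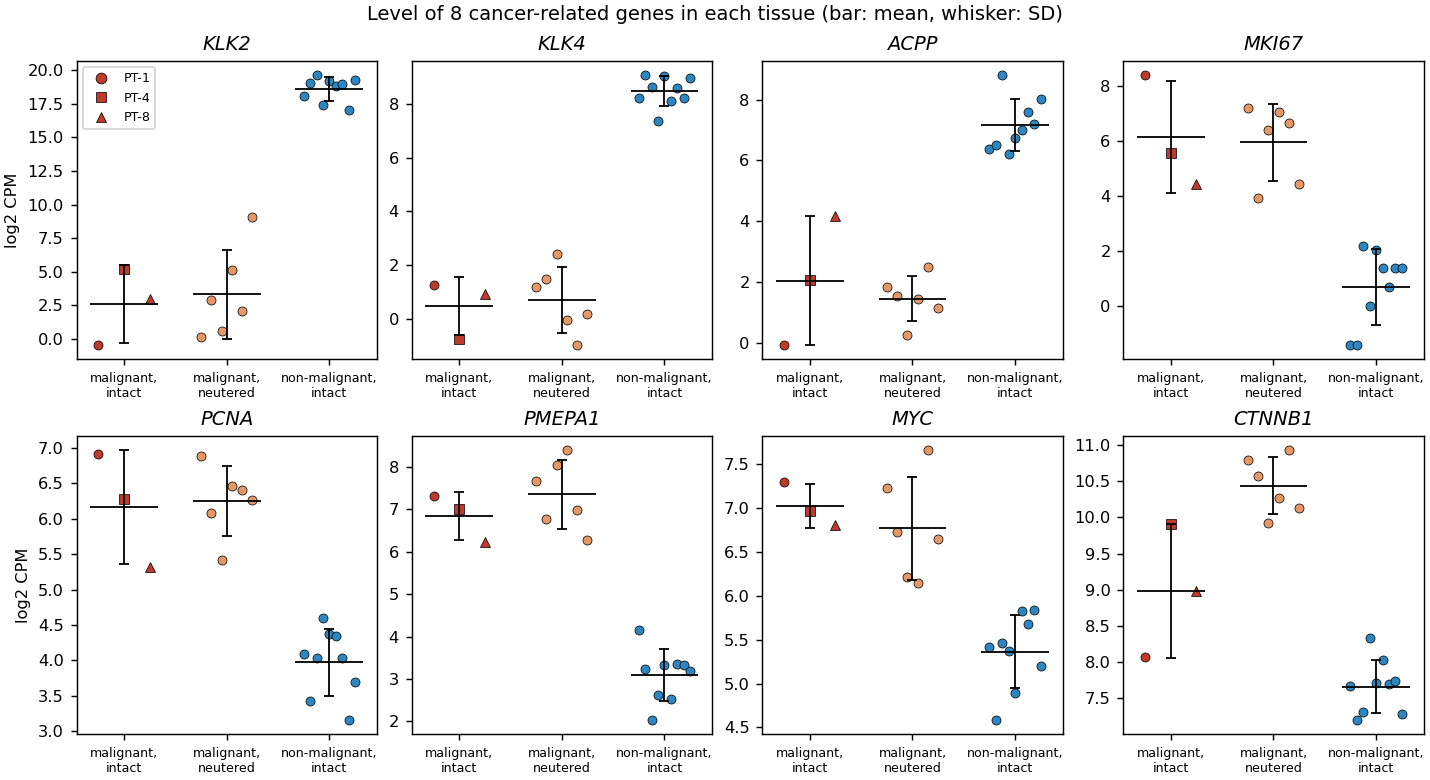
Levels of the 8 cancer-related genes on the log2 CPM scale (prior count 2) in 3 intact tumours, 6 neutered tumours and 9 non-malignant tissues, with 1 point per dog, the group mean as a bar and the SD as a whisker. For every gene other than CTNNB1 the 3 intact tumours (circle PT-1, square PT-4, triangle PT-8) lie on one side of all controls, and PT-1 lies among the controls for CTNNB1.

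MKI67 and PCNA mark dividing cells, MKI67 as a nuclear protein of the cycling cell and PCNA as the sliding clamp of DNA replication. MKI67 (ENSCAFG00000013255) was at 337 CPM in PT-1, 46.5 CPM in PT-4 and 21.4 CPM in PT-8. The controls ranged from 0 CPM, found in 2 of them, to 4.21 CPM with a median of 2.24 CPM. The log2 fold change was 6.20 (SE 0.80, FDR 0.000138), with a 15.7-fold spread among the 3 tumours. PT-1 was 184-fold and PT-8 11.7-fold above the control mean. Without PT-1 the log2 fold change was 4.20, and it stayed called.

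PCNA (ENSCAFG00000006030) was at 120 CPM in PT-1, 77.5 CPM in PT-4 and 39.3 CPM in PT-8, against 8.53 to 23.9 CPM (median 16.1 CPM) in the controls. The tumours kept the order found for MKI67, over a 3.04-fold range. The log2 fold change was 2.31 (SE 0.32, FDR 0.000217).

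PMEPA1 (ENSCAFG00000031382) encodes a membrane protein that is induced by androgens and by TGF-beta and limits signalling of both pathways. It was at 159 CPM in PT-1, 129 CPM in PT-4 and 74.2 CPM in PT-8. The controls ranged from 3.68 to 17.5 CPM with a median of 9.11 CPM. The lowest tumour was thus above the highest control, and PMEPA1 had the smallest FDR of the 5 genes called higher (log2 fold change 3.79, SE 0.35, FDR 2.04e-05).

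MYC (ENSCAFG00000001086), a transcription factor that drives growth and division, was at 157 CPM in PT-1, 125 CPM in PT-4 and 111 CPM in PT-8. In the controls it ranged from 23.6 to 56.7 CPM with a median of 42.4 CPM. The 3 tumours were closest to each other for this gene, within 1.41-fold. The log2 fold change was 1.65 (SE 0.25, FDR 0.000402). For MKI67, PCNA, PMEPA1 and MYC alike, PT-1 was the highest and PT-8 the lowest of the intact tumours.

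CTNNB1 (ENSCAFG00000005204) encodes beta-catenin, which links cadherins to the cytoskeleton and carries the canonical Wnt signal to the nucleus. It was at 267 CPM in PT-1, 958 CPM in PT-4 and 504 CPM in PT-8, against 146 to 321 CPM (median 207 CPM) in the controls. PT-4 and PT-8 were above every control, whereas PT-1, the tumour with the highest MKI67, lay within their range at 1.29-fold of the control mean. The log2 fold change was 1.49 (SE 0.33, FDR 0.00359) with the 12 samples. Against the 4 GB controls alone the log2 fold change of 1.48 had an FDR of 0.101. Leaving out PT-4 gave the smallest value, 0.90.

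With DESeq2, 7 of the 8 genes passed the strict threshold of 0.00001, with FDRs from 3.839e-76 for KLK2 to 1.831e-07 for MYC. The study had picked these genes with the same tool and threshold from data that include these samples. Passing again is therefore not independent evidence. The number of all IDs that passed is given above. CTNNB1 was the exception with an FDR of 0.000276. With edgeR none of the 8 passed it. Both tools gave all 8 genes the same direction.

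Because KLK2 alone held up to 48.2% of the reads, the libraries of the controls were concentrated on few genes. The 10 most abundant genes held 5.94% of the reads on genes in PT-1, 8.45% in PT-4 and 9.69% in PT-8, against 22.8 to 54.0% in the controls. All 3 tumours were below all controls, and the mean was 2.33 lower on the log2 scale (two-sided exact permutation test p = 0.00455, 0.0136 adjusted). The number of genes that together hold 50% of the reads was 947 in PT-1, 412 in PT-4 and 738 in PT-8, and 3 to 349 in the controls (exact permutation test p = 0.00909, 0.0182 adjusted).

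With KLK2 left out of the counts neither difference was past 0.05. The top 10 genes then held 6.82 to 19.8% of the control libraries, within which PT-4 and PT-8 lay (difference in log2 -0.535, exact permutation test p = 0.1455). The genes holding 50% of the reads were then 183 to 719 in the controls (difference in log2 0.57, exact permutation test p = 0.2045). PT-1 (947) and PT-8 (738) were still above all controls on this count, and PT-4 (412) lay within their range. Without PT-1, and with KLK2 counted, the difference in the number of genes holding 50% of the reads was 3.88 in log2 (exact permutation test p = 0.05455).

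**Figure D3:**
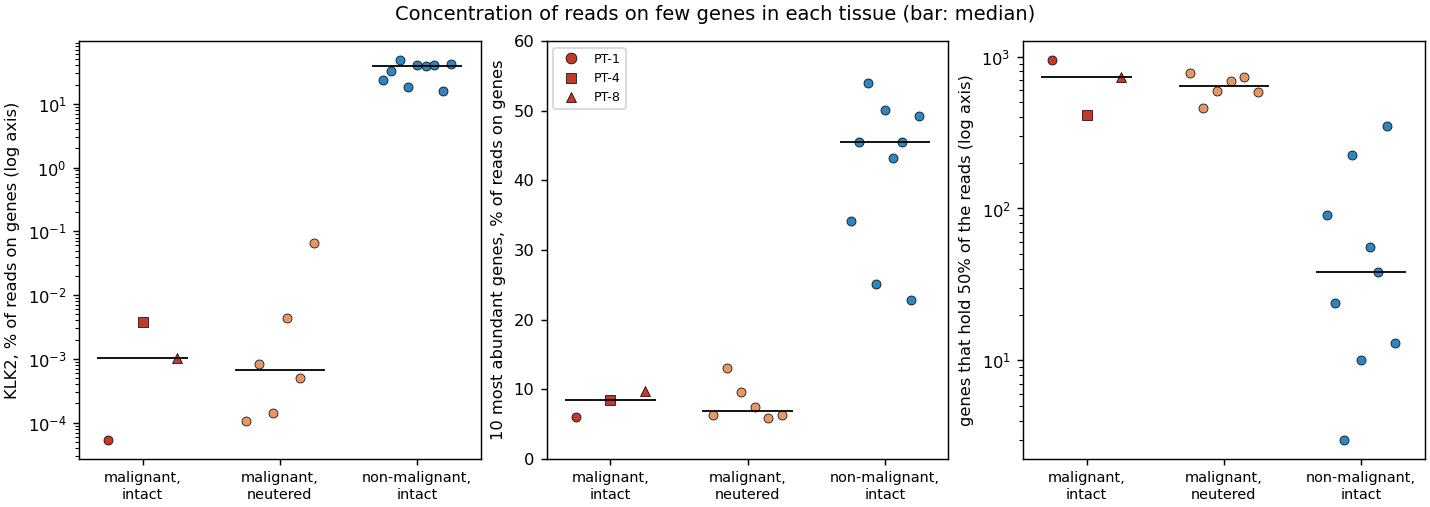
Share of reads on KLK2 (log axis), share of reads on the 10 most abundant genes (linear axis) and number of genes holding 50% of the reads (log axis), with 1 point per tissue and the group median as a bar. The intact tumours (circle PT-1, square PT-4, triangle PT-8) are below all controls in the first and second panels and above all controls in the third.

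Beyond the 8 genes, the largest differences were taken among the called genes without overlap between the groups and with a mean of at least 1 CPM in the higher group. The 10 genes with the largest log2 fold change upward had mean levels of 9.06 to 1256 CPM in the intact tumours and at most 0.45 CPM in the controls. Of these 10 genes, 6 had no read in any of the 9 controls. PT-1 was the highest tumour for 4 of them, PT-4 for 3 and PT-8 for 3. The 10 largest downward, among them KLK2, had mean levels from 19.1 CPM in the controls and at most 15.2 CPM in the tumours. Of these, 4 had no read in any of the 3 tumours. None of these genes other than KLK2 is named here.

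ENSCAFG00000028626 ranked first upward. It was at 175 CPM in PT-1, 34.8 CPM in PT-4 and 3560 CPM in PT-8, from 1497, 164 and 26063 reads. Of the controls, 7 had no read and PT-16 and PT-17 had 1 read each. That no tumour overlapped the controls was a condition of the selection. The tumours spanned a wide range among themselves. The log2 fold change against the controls was 13.93 (FDR 1.52e-05), and 10.34 without PT-8.

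ENSCAFG00000015054 had no read in any control. It was at 845 CPM in PT-1, 12.1 CPM in PT-4 and 3.55 CPM in PT-8. Taking 3 reads in the control library with the highest floor (0.97 CPM) as the limit, the mean of the tumours was at least 296-fold higher, and PT-8 alone was at least 3.67-fold higher. The mean rested on PT-1. Its log2 fold change in the fit was 13.43 (FDR 0.00426), and 8.13 without PT-1. Against the 4 GB controls alone the FDR of this gene was 0.052, so it was not called.

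ENSCAFG00000031237 ranked second to KLK2 downward. No read was counted in PT-1, PT-4 or PT-8, whereas the controls ranged from 54.0 to 220 CPM with a median of 144 CPM. With 3 reads in the shallowest tumour library (0.64 CPM) as the limit, the mean level was at least 226-fold lower in the tumours (FDR 1.52e-05). Of the 15283 genes tested, 192 had no read in any control, of which 6 had at least 1 CPM in all 3 tumours. In the other direction, 158 genes had no read in the 3 tumours, of which 14 had at least 1 CPM in all 9 controls. The first condition asks for no read in 9 libraries and the second in 3, so the numbers cannot be set against each other. Genes without a read in one group passed the filter on low counts only through their reads in other samples of the series, so these counts depend on that filter.

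The 3 intact tumours differed from each other as well as from the controls. Relative to the range of the 9 controls, 5029 genes were above and 4279 below it in PT-1, 4184 and 3539 in PT-4, and 4382 and 3542 in PT-8. By more than 2-fold beyond the range there were 2345 and 1989 genes in PT-1, 1681 and 1317 in PT-4, and 1463 and 1031 in PT-8. For comparison, each control had 979 to 2385 genes above and 833 to 2204 below the range of the other 8 controls, a range set by 1 sample fewer. PT-1 thus departed most from the controls by each of these counts.

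Among the 5529 called genes, PT-1 lay within the control range for 760 (13.7%), PT-4 for 1374 (24.9%) and PT-8 for 1130 (20.4%). The calls were made on the same values, so low shares within the range are built into them. Of all 15283 genes tested, 9308 lay outside the control range in PT-1, 7723 in PT-4 and 7924 in PT-8. Over all 15283 genes tested, called or not, a departure from the control range found in a single tumour was counted for 1760 in PT-1, 1384 in PT-4 and 1071 in PT-8. Of the same 15283 genes, 173 were more than 2-fold above the control range in one intact tumour and more than 2-fold below it in another.

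**Figure D4:**
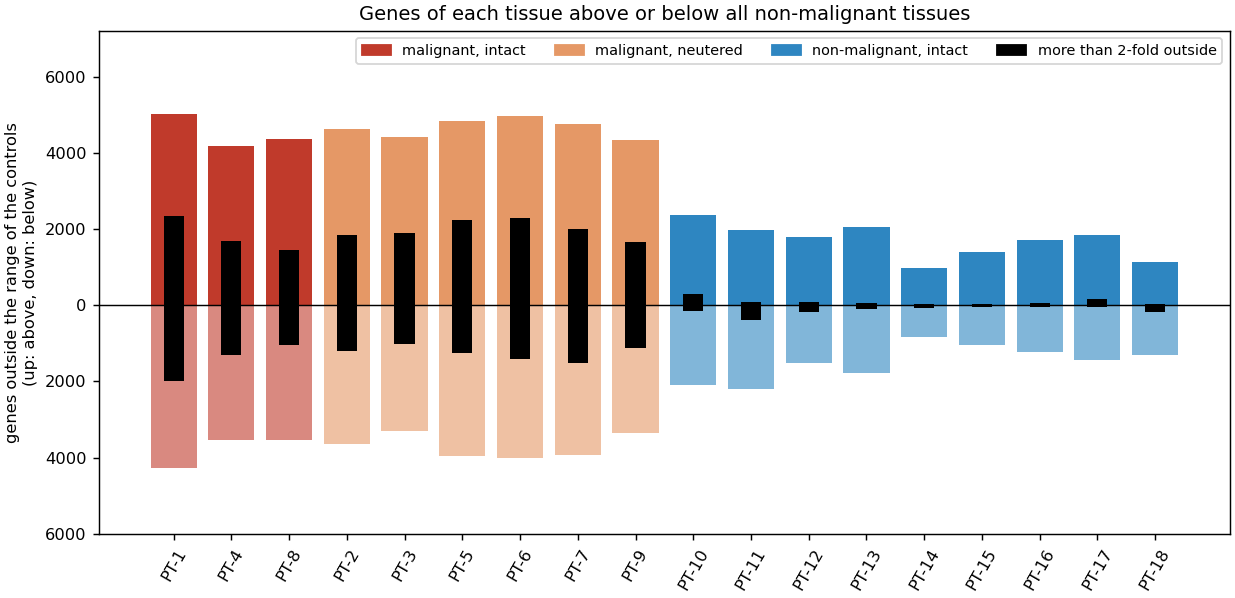
Number of genes above (upward bars) and below (downward bars) the range of the 9 non-malignant tissues in each tumour, and of the other 8 in each non-malignant tissue, with black bars for genes more than 2-fold outside. The 3 intact tumours have 7723 to 9308 genes outside in total, and PT-1 has the most.

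The root mean square difference in log2 CPM over the genes tested was 1.98 between PT-1 and PT-4, 1.77 between PT-1 and PT-8 and 1.77 between PT-4 and PT-8. Pairs of controls differed by 0.736 to 1.30 (median 1.03), and pairs of an intact tumour and a control by 1.67 to 2.48 (median 1.98). Pairs of neutered tumours differed by 1.05 to 1.46 (median 1.17), so each pair of intact tumours was further apart than every pair of neutered tumours. The median SD per gene was 0.789 in intact tumours, 0.581 in neutered tumours and 0.568 in controls on the log2 CPM scale. These values describe 3, 6 and 9 dogs and were not tested.

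Distances to neutered tumours were in part smaller than those among the intact ones. PT-4 was closest to the neutered PT-9 (1.04), PT-7 (1.14) and PT-2 (1.20). PT-1 was closest to the neutered PT-6 (1.35) and PT-8 to the neutered PT-6 (1.48). Each intact tumour was thus nearer to a neutered tumour than to another intact one. PT-8 was also nearer to the controls PT-15 (1.67), PT-13 (1.68), PT-16 (1.74) and PT-17 (1.76) than to either of the other intact tumours.

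Whether the intact tumours differed from the 6 neutered tumours was tested directly. Of 15249 genes, edgeR called 0 (0%) at an FDR under 0.05 and 809 (5.31%) at an unadjusted p under 0.05. DESeq2 called 14 genes at an FDR under 0.05, 2 higher and 12 lower in the intact tumours. Against the same 9 controls, 8851 of 15293 genes (57.9%) in the 6 neutered tumours had an FDR under 0.05, and 1019 (6.66%) passed the strict threshold. The numbers of tumours differ, and the controls are shared by both comparisons.

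For the 8 cancer-related genes the fold changes against the shared controls are given side by side. KLK2 had a log2 fold change of -14.90 in the intact and -12.21 in the neutered tumours (-15.58 without the neutered PT-9), KLK4 of -8.15 and -7.72, and ACPP of -4.52 and -5.95. For MKI67 they were 6.20 and 5.49, for PCNA 2.31 and 2.30, for PMEPA1 3.79 and 4.40, and for MYC 1.65 and 1.47. CTNNB1 was at 1.49 in the intact and 2.78 in the neutered tumours.

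In the main edgeR fit of intact against neutered tumours, none of the 15249 genes tested had an FDR under 0.9, the 8 genes included. The smallest FDR of all genes in this fit was 0.907. Among the alternative settings the smallest FDR of CTNNB1 was 0.319. Of the 8, CTNNB1 had the smallest unadjusted edgeR p (0.0268, FDR 0.907), with a log2 difference of -1.31 (SE 0.50). All 3 intact tumours, at 267 to 958 CPM, were below all 6 neutered tumours, at 973 to 1959 CPM, although PT-4 was close to the lowest of them. ACPP was higher by 1.45 (SE 0.84, FDR 0.923), and this sign turned to -0.32 when PT-8 was left out. The log2 difference of PCNA was 0.00 (SE 0.40) and that of MYC 0.17 (SE 0.38). KLK2 was at 0.73 to 542 CPM in the neutered tumours, and its log2 difference of -2.69 (SE 2.19) turned to 0.69 without the neutered PT-9. With SEs of this size, differences of about 2-fold could not be told from none for most of these genes.

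**Figure D5:**
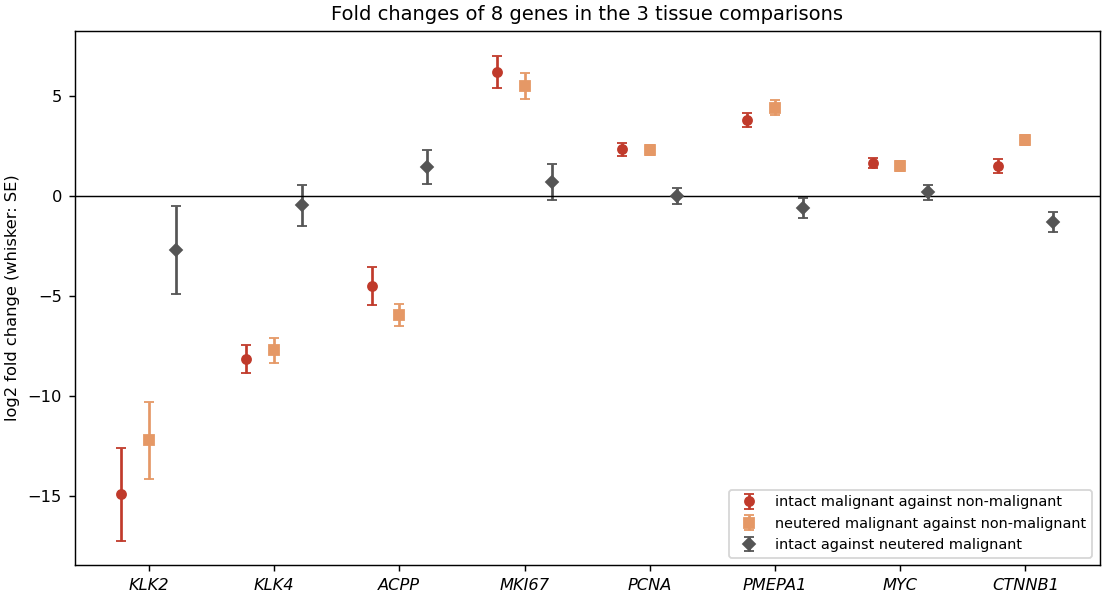
Log2 fold changes with SE for the 8 genes in intact malignant against non-malignant tissue (circles), neutered malignant against non-malignant tissue (squares) and intact against neutered malignant tissue (diamonds). Both sets of tumours lie on the same side of 0 for each gene, and CTNNB1 is lower by 1.31 in the intact tumours.

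Blood in the samples was followed with the 5 haemoglobin genes, which are transcribed in red cell precursors. Their summed share was 0.000701% of the reads on genes in PT-1, 0.00922% in PT-4 and 0.00011% in PT-8, from 39, 425 and 6 reads. The controls ranged from 4.44e-05 to 0.00487% with a median of 0.00185%. PT-4 was above every control and the other tumours lay within the control range. As a share of the reads other than KLK2, the controls ranged from 5.449e-05 to 0.00838% with a median of 0.00305%, and PT-4, unchanged at 0.00922%, was just above the highest of them. The mean did not pass the test on either scale (log2 difference -0.49, two-sided exact permutation test p = 0.755, and -1.10 without KLK2, p = 0.491).

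None of the 5 haemoglobin genes was called, against 36.2% of all genes tested. The FDRs were 0.756 for HBA1 (log2 fold change 0.49, SE 1.13), 0.951 for HBA2, 0.384 for HBD, 0.937 for HBB and 0.192 for haemoglobin subunit mu. Mean levels of HBD (0.12 CPM in the tumours, 0.36 CPM in the controls) and haemoglobin subunit mu (0.57 and 0.09 CPM) were near the floor. With so few genes, the lack of calls does not show that blood was equal. HBB, the beta chain, was at 1.40 CPM in PT-1, 32.5 CPM in PT-4 and 0.55 CPM in PT-8, against 0.21 to 34.6 CPM in the controls. HBA1, an alpha chain, was at 1.52, 29.9 and 0 CPM in the same tumours. HBA1 and HBA2 are near-identical copies, so their separate values are uncertain. Markers of other cell types could not be looked up by ID, and their part in the differences was not tested.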

How the data were processed

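RNA-Seq counts of 3 malignant tissues of intact dogs, 9 non-malignant tissues and 6 malignant tissues of neutered dogs were used, grouped by the labels. The fine-needle aspirates entered only the filter on low counts. For each sample the authors deposited unnormalised read counts, 1 per Ensembl gene ID. Total RNA had been sequenced on a NextSeq500 after NEBNext Ultra library preparation, by single reads per the study's methods, which elsewhere speak of pairs of mapped reads. Per the submitters' processing notes and the study's methods, reads were trimmed with Trimmomatic 0.32, mapped to CanFam3.1 with TopHat2 and counted with HTSeq at default settings, which count a read only on the annotated strand. Whether the libraries kept strand is not given in the sources used here, so reads of overlapping antisense genes may be missing or mixed.

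The 32220 IDs were filtered with filterByExpr over the 4 groups of the series (minimum count 10, minimum total 15), leaving 15296, and genes without a count in a comparison were dropped. Counts on genes were 4258267 to 6594032 per tissue. Rows that name no gene were left out. Those not on a feature held 58.8 to 68.8% and those ambiguous between genes 0.186 to 0.42% of all rows' counts. Each pair of groups was fitted alone in edgeR 4.0.16 (R 4.3.3) with TMM and the quasi-likelihood test, with Benjamini-Hochberg adjustment. The SE of a log2 fold change was its absolute value over the root of the F statistic. Fold changes are on the scale of the edgeR fit, and log2 CPM used a prior count of 2. Values per sample were tested by exact permutation, two-sided, over 220 or 84 assignments (smallest p 0.00455 and 0.0119) in Python 3.11.15 with NumPy 2.4.6, and 95% Wilson intervals came from SciPy 1.17.1. The floor of detection was 3 reads per library. For the haemoglobin share 1 read was added before taking logs. Intervals and floors cover counting error only. The edgeR and DESeq2 fits of intact malignant against non-malignant tissue were tested on simulated data.

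Named genes were those printed with an ID in the study, plus the 10 genes with the largest log2 fold change in each direction among calls without overlap and with at least 1 CPM, of which at most 2 unnamed IDs per direction are given, and the genes with the smallest p between intact and neutered tumours, which have no name and are not printed. The reference table of gene names (UU_Cfam_GSD_1.0) matched 0 of the 32220 IDs, so marker lists that had been drawn up by symbol (secretory, basal and urothelial epithelium, cell cycle, androgen response, Wnt targets, stroma, endothelium, immune cells, epithelial-mesenchymal change, interferon, hypoxia and neuroendocrine genes) could not be evaluated, and no genome position is given. One gene of the rule is not reported here. The samples and the lists were chosen with earlier results of these data known. Dogs were treated as independent. Alternatives were DESeq2 1.42.0 on all IDs (and on the filtered genes, added after seeing the data), its size factors in edgeR, other filters, KLK2 left out, 1 fit of the 3 tissue groups, age as a covariate, subsets of the controls, all 9 malignant tissues, and each sample left out in turn.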

Additional observations from a re-analysis of the deposited data

Results flagged for a closer look

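Among the 22 sets of control values examined for a sample far from the other 8, 1 was flagged, about the number that chance gives at 1 in 20. Haemoglobin subunit mu was at 0.628 CPM in the control PT-11, from 2 reads, and was not detected in 7 of the 9 controls. At 2 reads this value is under the floor of 3 reads.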

How the results depend on the processing

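The number of genes at an FDR under 0.00001 in intact malignant against non-malignant tissue, 0 with edgeR, was 1087 with DESeq2 on all IDs, 1085 with DESeq2 on the filtered genes (added after seeing the data), 54 without a filter on low counts, 113 in 1 fit of the 3 tissue groups and 977 with all 9 malignant tissues. It ranged from 0 to 27 with 1 sample left out (27 without PT-8, 10 without PT-1 or PT-4, and 1 without PT-11). At an FDR under 0.05 the 5529 calls became 1154 with the 4 GB controls, 3591 with the 5 other controls and 8821 with all 9 malignant tissues, and ranged from 3895 to 5761 with 1 sample left out. The other settings stayed within 1.5-fold, and the share of calls that were higher ranged from 53.8 to 64.7%. The cause of these shifts was not tested. Fewer samples entered the fits of control subsets and more entered that of all 9 tumours. In the control subsets the code and the number of controls changed together and cannot be told apart.

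For the neutered tumours the count at 0.00001 was 1019 with edgeR, 3605 with DESeq2 and 603 to 819 with 1 sample left out. Intact against neutered tumours gave 14 calls with DESeq2 and 0 with each sample left out under edgeR. The 8 cancer-related genes kept their direction against the controls under all settings run. ACPP (-4.56, FDR 0.0537), CTNNB1 (1.48, FDR 0.101) and ENSCAFG00000015054 (13.56, FDR 0.052) were not called with the GB controls alone, and for the last gene DESeq2 gave no adjusted p.

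Log2 differences between intact and neutered tumours ranged with 1 sample left out from -4.60 to 0.69 for KLK2, -0.95 to 0.15 for KLK4, -0.32 to 2.02 for ACPP, -1.26 to 1.22 for MKI67 and -0.41 to 0.33 for PCNA. PCNA was at -0.00559 without a filter and -0.00618 in 1 fit of the 3 tissue groups. The haemoglobin genes turned sign. With 1 sample left out HBA1 ranged from -3.21 to 1.09, HBA2 from -3.20 to 0.69, HBB from -3.63 to 0.44 and haemoglobin subunit mu from -2.09 to 3.30, and leaving out PT-4 gave the low end of each of these 4. HBA2 was at -0.0507 with the 5 other controls, HBB at 0.15 without the youngest and oldest controls and 0.0772 with the GB controls, and with all 9 malignant tissues HBD was at 0.26, HBB at 0.0706 and haemoglobin subunit mu at 2.86 (FDR 0.0131). The summed haemoglobin share differed by 0.00133 percentage points on the linear scale and by -2.13 to 0.95 in log2 with 1 sample left out.

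Without KLK2 the share of the 10 most abundant genes differed by -0.535 in log2 (exact permutation p = 0.1455) and the number of genes holding 50% of the reads by 0.57 (exact permutation p = 0.2045). With KLK2 counted, the difference in the number of genes holding 50% of the reads was 4.14 and ranged from 3.69 to 4.55 with 1 sample left out, and it was no longer past the threshold without PT-1 (3.88). No paired analysis was possible because the labels give each dog a number of its own. The alternatives for the marker lists were not run, since no list could be evaluated. Depth and 3 intact tumours limit genes near the floor of 3 reads, such as KLK4 in PT-4.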
